A study of Mus musculus with 6 samples.

Results

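Apoe and 8 further genes of lipoprotein handling were followed by name through a count table of 55493 genes: the apolipoprotein genes Apoc1, Apoc2, Apoc4 and Clu, the lipase gene Lpl, and the exporter genes Abca1, Abcg1 and Abca7. All 9 were present in the table, 8 had at least 1 read and 5 passed the filter on low counts that kept 18210 genes for testing. The RNA came from brain microglia (macrophages that reside in the brain parenchyma), sorted by a CD45-low CD11b-positive gate. All mice were male, carried the ILT Telo Tg transgene, whose human LILR genes appear as 6 rows of the table, on the 5XFAD amyloid background, and were 4 months old when treatment began. The anti-LILRB4 group (3 libraries) received the Fc-mutant antibody ZM3.1 and the control group (3 libraries) the Fc-mutant antibody 27D6, called Ctrl IgG2a in the labels, each at 60 mg/kg by weekly intraperitoneal injection, 8 in total. LILRB4, also called ILT3, is an inhibitory receptor of myeloid cells, and the promoter driving the transgene is not given in the sources used here. The labels do not say whether each library is a separate animal, so p-values measure the spread between libraries, which may be technical.

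Apolipoprotein E is the main lipid carrier made inside the brain, and APOE has been described as a ligand of human LILRB4. Lipid-poor apolipoprotein E receives cholesterol and phospholipid from ABCA1 at the cell surface and more from ABCG1, and the particles are then taken up through lipoprotein receptors. Microglia that contact amyloid are known to raise Apoe, Lpl and other lipid genes, and excess cholesterol switches on exporters and Apoe through the oxysterol receptors LXR.

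The libraries held between 39805118 and 56345514 counts. All 10 microglia markers were present, summing to between 46553 and 47053 CPM (each count as its share of the library, rescaled by TMM) in the anti-LILRB4 libraries and between 45252 and 46374 CPM in the controls, with P2ry12 the most abundant. With edgeR's quasi-likelihood test and a threshold of 0.05 on the Benjamini-Hochberg adjusted p, 0 of 18210 genes (0%) were called in either direction. DESeq2 called 0.461% of genes as higher and 0.467% as lower with the same threshold, and edgeR without a filter on low counts called 0.517% and 0.33% of 35404 genes. No gene described below passed the edgeR threshold with the filter in place, and the directions given are those of the measured values.

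Of the 9 lipoprotein genes, 0 were called in either direction (0% of all genes in edgeR), and 0 of the 5 that were tested had an unadjusted p under 0.05 in edgeR, against 8.03% of all genes tested. Without the filter on low counts edgeR gave an unadjusted p of 0.00397 for Apoe and 0.00102 for Clu, with adjusted p values of 0.183 and 0.0839. In 0 of the 5 tested did the groups stand apart, with every anti-LILRB4 library on one side of every control, against 14.7% of all genes tested. Nor did they in the 4 genes below the filter, of which Apoc2 had no reads. Apoe had the smallest p of the 5 tested. Its mean was higher in anti-LILRB4 libraries, by a margin that its spread did not separate from 0. Abcg1, by far the most abundant, was at the same mean level in both groups within a narrow interval. Lpl, Abca1 and Abca7 had differences well within the spread of their libraries. Apoc1, Apoc4 and Clu were represented by stray reads, most of them in 1 library each, and Apoc2 by none.

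Apoe (ENSMUSG00000002985, GRCm38 chromosome 7, 19696109 to 19699188, minus strand), the lipid carrier itself, was measured at 31.8, 53.0 and 49.5 CPM in anti-LILRB4 libraries 1, 2 and 3, against 41.4, 26.2 and 28.7 CPM in control libraries 1, 2 and 3. Anti-LILRB4 libraries 2 and 3 were the highest of the 6, but anti-LILRB4 library 1 lay below control library 1, so the groups overlapped. The means were 44.8 ± 11.3 CPM in anti-LILRB4 libraries and 32.1 ± 8.17 CPM in controls (SD, n = 3 each). The log2 fold change of 0.48 (standard error 0.23) had a 95% interval from -0.03 to 0.99, which is a fold of 1.39 with bounds of 0.979 and 1.98. In edgeR the adjusted p was 0.639 and the unadjusted p 0.0628. DESeq2 gave an unadjusted p of 0.0373 and an adjusted p of 0.407, and the authors' deposited table lists a log2 fold change of 0.48 with an adjusted p of 0.451. The difference kept its sign when any single library was left out, between 0.35 without anti-LILRB4 library 2 and 0.71 without control library 1. In a bulk library, a change in the number of cells carrying a transcript and one in its amount per cell cannot be told apart.

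**Figure D1:**
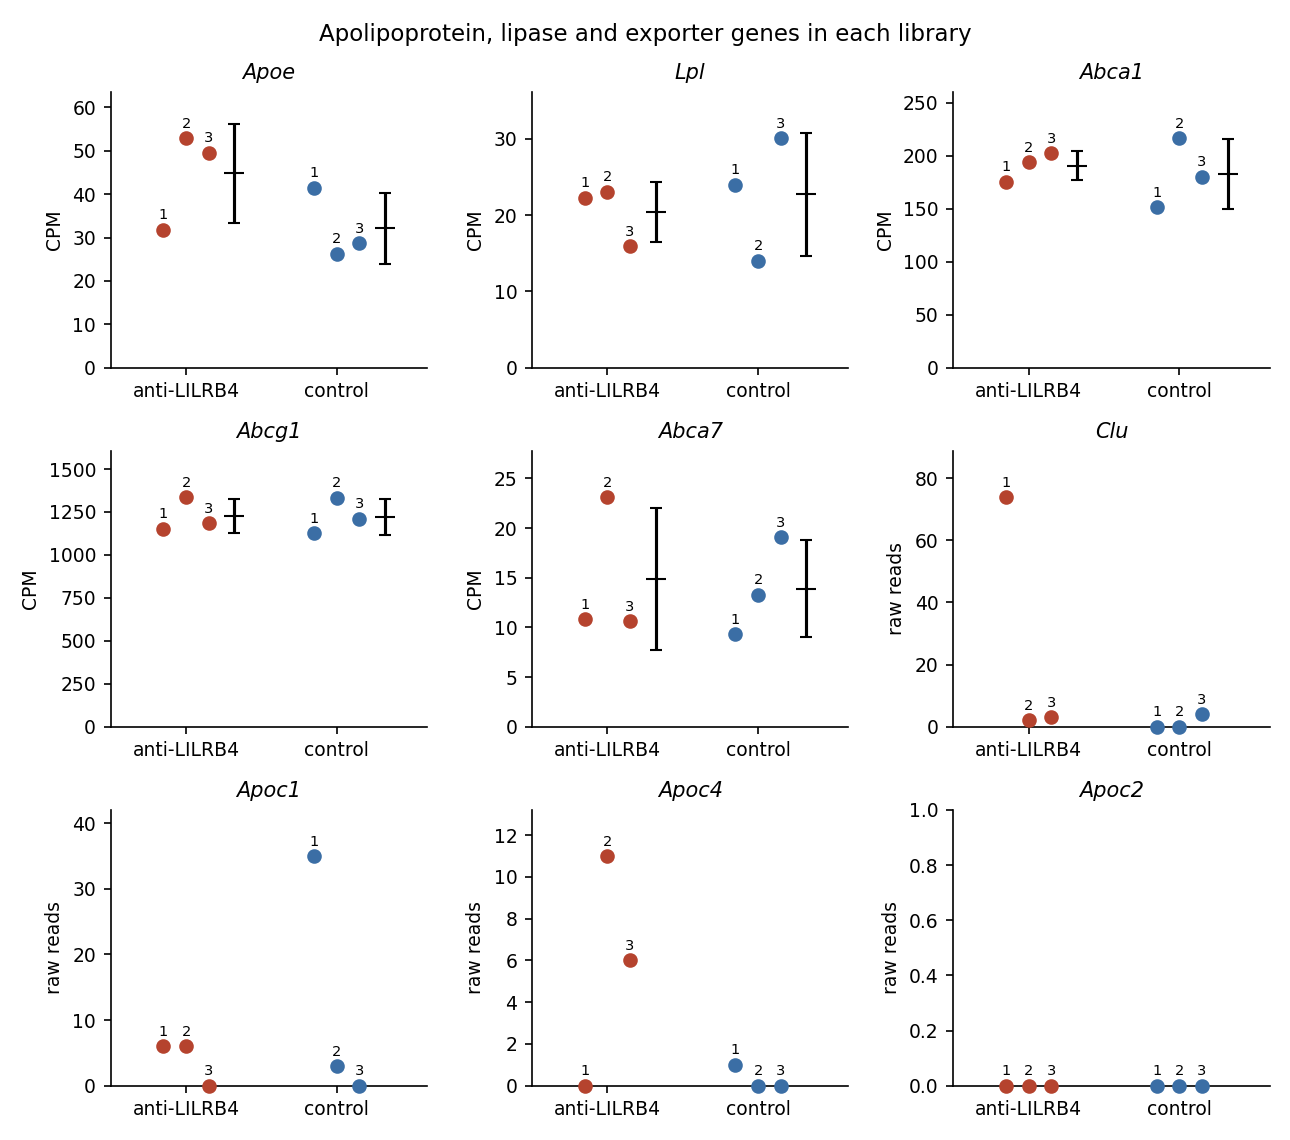
Each panel shows 1 gene, with anti-LILRB4 libraries (red) left of controls (blue) and the library number above each point; the y axis is CPM for the 5 genes tested, with the mean and SD as a black bar, and raw reads for the 4 genes below the filter. Apoe reached 53.0 and 49.5 CPM in anti-LILRB4 libraries 2 and 3, while 74 of the 83 Clu reads lay in anti-LILRB4 library 1.

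Divided by exon length (2138 bases when all annotated transcripts are merged), the level of Apoe averaged 18.0 ± 5.25 CPM per kb over the 6 libraries (SD), rank 2529 among 18174 tested genes with an annotated length. Abca1 averaged 18.0 ± 2.21 CPM per kb and held rank 2520, so Apoe and Abca1 transcripts were at the same level per length and their ranges over libraries overlapped. Abcg1 averaged 168 ± 12.5 CPM per kb, rank 305, and its lowest library (154 CPM per kb) lay far above the highest value of any other of the 9 genes (24.8 CPM per kb, for Apoe). Abca7 and Lpl followed at 2.13 ± 0.817 and 2.06 ± 0.557 CPM per kb, with overlapping ranges and ranks of 9738 and 9866. Per length, Apoe over Abca1 was 0.878, 1.32 and 1.18 in anti-LILRB4 libraries 1, 2 and 3, against 1.33, 0.586 and 0.771 in control libraries 1, 2 and 3. The ratio crossed 1 in both groups. Using the longest annotated transcript as the length put Apoe at 27.3, Abcg1 at 209.8 and Lpl at 5.25 CPM per kb, and Apoe then stood above Abca1 (18.2) and Lpl above Abca7 (2.15).

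**Figure D2:**
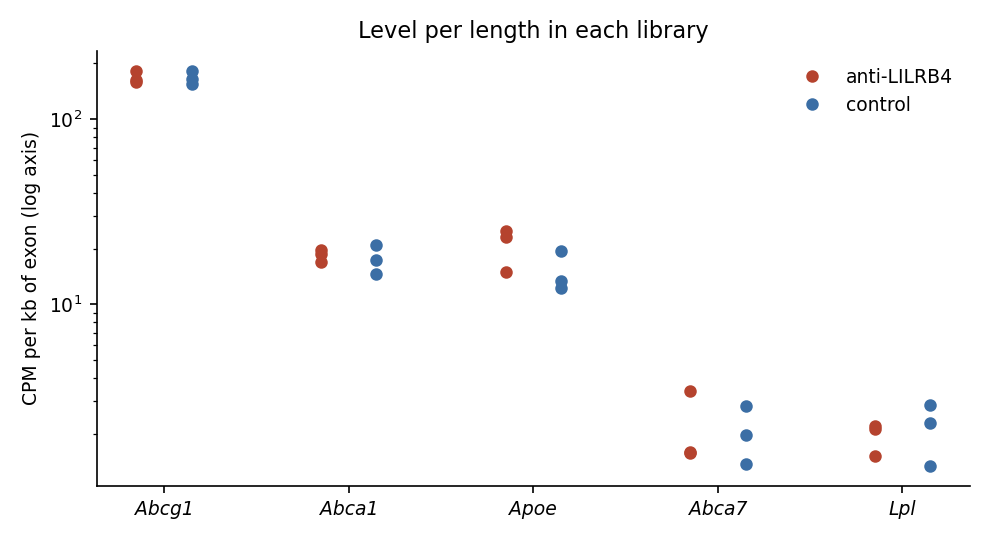
The y axis, on a log scale, is CPM per kb of merged exon length for the 5 tested genes, 1 point per library, with anti-LILRB4 libraries (red) left of controls (blue). Abcg1 stands apart at 168 CPM per kb on average, Abca1 and Apoe overlap at 18.0, and Abca7 and Lpl overlap near 2.13 and 2.06.

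The C apolipoproteins lie beside Apoe in 1 cluster on chromosome 7. Apoc1 (ENSMUSG00000040564, 19689481 to 19692660, minus strand), which hinders lipase action and receptor uptake of lipoproteins, had 6, 6 and 0 reads in anti-LILRB4 libraries 1, 2 and 3, against 35, 3 and 0 in control libraries 1, 2 and 3. Control library 1 alone held 70.0% of all 50 reads. Apoc4 (ENSMUSG00000074336, 19678083 to 19681479, minus strand), a minor component of plasma lipoproteins, had 0, 11 and 6 reads in anti-LILRB4 libraries 1, 2 and 3, against 1, 0 and 0 in control libraries 1, 2 and 3. These are too few to test under the filter. With no filter on low counts edgeR gave adjusted p values of 0.775 for Apoc1 and 0.656 for Apoc4. Apoc2 (ENSMUSG00000002992, 19671579 to 19677941, minus strand), the cofactor that activates lipoprotein lipase, had 0 reads in all 6 libraries, where a count of 3, the upper limit that 0 reads allow for counting error alone, would be between 0.0526 and 0.0744 CPM. In GENCODE M21 79.5% of the exon bases of Apoc2 also belong to Gm44805, an overlapping gene that was itself at 0 reads. How reads of this stretch were assigned was not tested. Apoc4 shares 4.69% of its exon bases with Gm44805, and Apoe and Apoc1 share none with another gene.

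Clu (ENSMUSG00000022037, chromosome 14, 65968483 to 65981547, plus strand) encodes clusterin, the apolipoprotein J that astrocytes and choroid plexus secrete in quantity. It had 74, 2 and 3 reads in anti-LILRB4 libraries 1, 2 and 3, against 0, 0 and 4 in control libraries 1, 2 and 3. Anti-LILRB4 library 1 held 89.2% of the 83 reads, and the remaining 5 libraries did not separate the groups. The authors' deposited table lists Clu with a log2 fold change of 4.26, a p-value of 0.0206 and an adjusted p of 0.331. Of 10 astrocyte markers 8 averaged under 1 CPM, and 0 were without reads. The list summed to between 249 and 291 CPM in anti-LILRB4 libraries and between 256 and 283 CPM in controls, nearly all of it Slc1a3, a glutamate transporter that microglia also express. Aldoc, the next most abundant, was at 8.31, 2.59 and 3.30 CPM in anti-LILRB4 libraries 1, 2 and 3, against 2.26, 6.52 and 1.32 CPM in control libraries 1, 2 and 3. It was highest in the library with most Clu reads, as were Slc1a2, Aqp4 and Sox9. Gfap, Gja1, Gjb6 and Slc4a4 were highest in control library 1, Aldh1l1 in control library 2 and Slc1a3 in anti-LILRB4 library 3. Choroid plexus and ependyma markers summed to between 15.8 and 22.3 CPM in anti-LILRB4 libraries, highest in library 1, and between 15.5 and 16.7 CPM in controls, with Foxj1 and Tmem212 at 0 reads. Ttr made up 66.6% of this sum. Without Ttr the sums were 6.96, 7.82 and 3.76 CPM in anti-LILRB4 libraries 1, 2 and 3. In control libraries 1, 2 and 3 they were 6.22, 4.41 and 6.67 CPM. The part of such cells in the Clu reads was not tested.

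Lpl (ENSMUSG00000015568, chromosome 8, 68880491 to 68907448, plus strand), the lipase that frees fatty acids from lipoprotein triglyceride, was at 22.3, 23.1 and 16.0 CPM in anti-LILRB4 libraries 1, 2 and 3, against 24.0, 14.1 and 30.1 CPM in control libraries 1, 2 and 3. The controls held both the lowest and the highest library. The log2 fold change was -0.15 (standard error 0.27, 95% interval -0.75 to 0.45, adjusted p 0.919 in edgeR), and it was -0.40 without control library 2 and 0.10 without control library 3.

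Among the exporters, Abca1 (ENSMUSG00000015243, chromosome 4, 53030787 to 53159895, minus strand), which lipidates apolipoproteins at the plasma membrane, was at 176, 194 and 203 CPM in anti-LILRB4 libraries 1, 2 and 3, against 152, 217 and 180.3 CPM in control libraries 1, 2 and 3. The anti-LILRB4 values all lay inside the range of the controls. The log2 fold change was 0.06 with a 95% interval from -0.25 to 0.37 (adjusted p 0.944 in edgeR). Abcg1 (ENSMUSG00000024030, chromosome 17, 31057675 to 31117988, plus strand), which passes cholesterol on to lipid particles, was at 1153, 1337 and 1183 CPM in anti-LILRB4 libraries 1, 2 and 3, against 1125, 1333 and 1210.1 CPM in control libraries 1, 2 and 3. Its mean was 1224 ± 99.0 CPM in anti-LILRB4 libraries and 1223 ± 105 CPM in controls (SD, n = 3 each). The log2 fold change of 0.00 had a 95% interval from -0.21 to 0.22, which bounds the fold between 0.863 and 1.16. This was the narrowest interval of the 5 genes tested. Per length, Abcg1 over Abca1 was 9.31, 9.78 and 8.29 in anti-LILRB4 libraries 1, 2 and 3, against 10.5, 8.73 and 9.53 in control libraries 1, 2 and 3, with overlapping groups.

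Abca7 (ENSMUSG00000035722, chromosome 10, 79996494 to 80015572, plus strand), a relative of Abca1 whose human counterpart lies at an Alzheimer disease risk locus, was at 10.8, 23.1 and 10.6 CPM in anti-LILRB4 libraries 1, 2 and 3, against 9.31, 13.3 and 19.0 CPM in control libraries 1, 2 and 3. Anti-LILRB4 library 2 was the highest of the 6, and the other values lay between 9.31 and 19.0 CPM. The log2 fold change of 0.10 had the widest 95% interval of the 5, from -0.68 to 0.88 (adjusted p 0.966 in edgeR), and was -0.37 without anti-LILRB4 library 2.

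**Figure D3:**
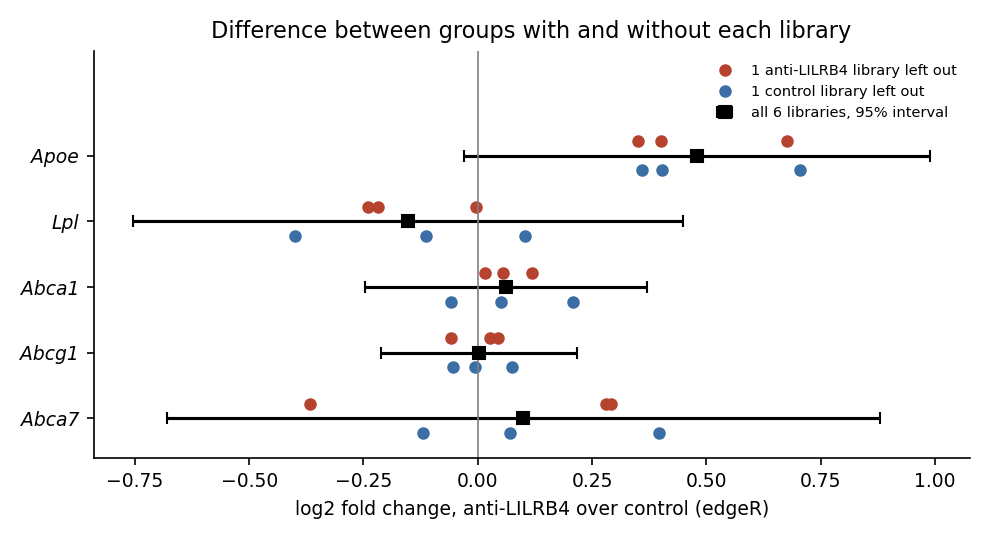
The x axis is the log2 fold change of anti-LILRB4 over control from edgeR; black squares with bars give the estimate and 95% interval from all 6 libraries, and coloured points the estimate with 1 library left out (red, an anti-LILRB4 library; blue, a control). All intervals include 0, and every point of Apoe lies between 0.35 and 0.71, while those of the other 4 genes reach to both sides of 0.

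Apoe levels did not follow those of the other 4 tested genes over the libraries. The Pearson correlation of log2 CPM with Apoe was 0.02 for Lpl, -0.10 for Abca1, -0.05 for Abcg1 and 0.06 for Abca7 over 6 libraries. Among the exporters the correlation was 0.76 for Abca1 with Abcg1, 0.72 for Abcg1 with Abca7 and 0.34 for Abca1 with Abca7. Lpl gave -0.69 with Abca1, -0.34 with Abcg1 and 0.36 with Abca7. These 10 values, over libraries that share 2 treatments, are a description. Among the 5 protein-coding genes whose levels followed Apoe most closely, of 4318 with a mean log2 CPM of at least 5, were Ap2s1 (0.99), Fam192a (0.98), Smndc1 (0.97) and Eef1g (0.97). Ap2s1 is a subunit of the clathrin adaptor AP-2 and Eef1g a subunit of translation elongation factor 1. With 6 libraries and this many genes, 40 of them had a correlation over 0.9.

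The promoter windows of Apoe and Abca1 are shown because both genes are textbook targets of LXR and stood at the same level per length of merged exons. Their correlation over the libraries was -0.10. RefSeq entries (GRCm38.p6, 250 bases before to 50 after the start site) existed for 5 of the 9 genes. Capitals mark matches, on either strand, of the E-box CACGTG, the GC box GGGCGG, the TATA box TATAAA and DR4 with up to 3 mismatches. DR4, the element bound by LXR with its partner RXR, was searched as 2 copies of AGGTCA in the same direction with any 4 bases between them.
Apoe (chr7:19699139-19699438, minus strand): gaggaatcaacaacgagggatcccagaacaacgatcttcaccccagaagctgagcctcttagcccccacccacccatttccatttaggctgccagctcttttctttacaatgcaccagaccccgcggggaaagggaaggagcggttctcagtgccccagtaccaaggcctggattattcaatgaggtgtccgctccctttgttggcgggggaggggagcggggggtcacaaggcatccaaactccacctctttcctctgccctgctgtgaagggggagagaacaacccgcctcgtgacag
Abca1 (chr4:53159846-53160145, minus strand): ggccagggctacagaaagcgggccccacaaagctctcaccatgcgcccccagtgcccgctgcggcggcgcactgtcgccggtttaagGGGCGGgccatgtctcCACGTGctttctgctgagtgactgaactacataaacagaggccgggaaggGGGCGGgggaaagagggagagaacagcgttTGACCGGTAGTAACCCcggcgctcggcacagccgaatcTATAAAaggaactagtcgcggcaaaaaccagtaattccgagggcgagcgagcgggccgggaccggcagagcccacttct
The Abca1 window held 2 GC boxes, 1 E-box 147 bases before the start site, 1 TATA box 29 bases before it, and 1 DR4 match with 3 mismatches beginning 67 bases before it on the reverse strand. These matches did not overlap each other. The Apoe window held 0 matches of these motifs. Among 32851 promoter windows of that RefSeq set, 21.9% held a DR4 match at this tolerance, 35.7% a GC box, 13.6% a TATA box and 7.15% an E-box. A match is a description of letters and not of binding.

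Other genes of the pathway were counted in 7 lists of 133 different genes, 101 of which were tested. In edgeR 0 were called in each direction. Of the 101, 10 were higher and 9 lower in the anti-LILRB4 libraries with an unadjusted p under 0.05, against 4.12% and 3.91% of all genes tested. Every anti-LILRB4 library lay above every control for 6.94% of all genes tested and below for 7.79%. The median log2 fold change of all genes tested was -0.01. Genes are named from the 3 with the smallest p in each list.

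Receptors that take up lipoproteins had a median log2 fold change of 0.09 over 20 tested genes, of which 3 had an unadjusted p under 0.05 on the higher side and 2 on the lower. Mylip, the LXR-induced ubiquitin ligase that sends lipoprotein receptors to degradation, was at 171, 179.7 and 175 CPM in anti-LILRB4 libraries 1, 2 and 3, against 238, 224 and 222 CPM in control libraries 1, 2 and 3. The groups were apart by more than the spread within either, with a log2 fold change of -0.38 and an adjusted p of 0.426 in edgeR. DESeq2 called it, at an adjusted p of 0.0197. Lrp1, the large receptor through which microglia and neurons take up apolipoprotein E and amyloid, was at 195, 307 and 215 CPM in anti-LILRB4 libraries, against 106, 178 and 178 CPM in controls (log2 fold change 0.63, edgeR adjusted p 0.523). With no filter on low counts edgeR called Lrp1, at an adjusted p of 0.000504. In the anti-LILRB4 libraries Mylip was below all controls, and Lrp1 above them.

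**Figure D4:**
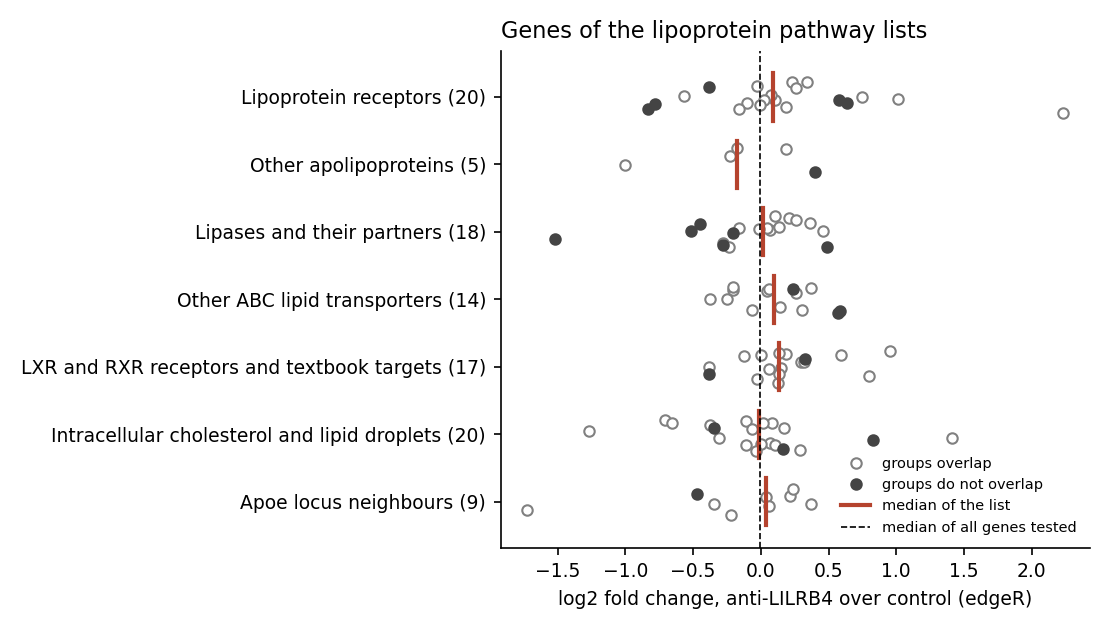
Each point is 1 tested gene of a list, placed by its log2 fold change of anti-LILRB4 over control (x axis); filled points are genes whose groups do not overlap, red lines are list medians and the dashed line the median of all 18210 genes. The number tested stands beside each list, and the medians lie between -0.17 for other apolipoproteins and 0.14 for LXR genes.

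Lipases and their partners had a median of 0.01 over 18 tested genes, of which 1 had an unadjusted p under 0.05 on the higher side and 4 on the lower. Nceh1, a hydrolase of cholesteryl ester in macrophages, was at 34.7, 30.4 and 28.2 CPM in anti-LILRB4 libraries 1, 2 and 3, against 42.2, 38.2 and 52.9 CPM in control libraries 1, 2 and 3. Lipa, the lysosomal acid lipase that frees cholesterol from lipoproteins taken up, averaged 369.9 ± 11.8 CPM in anti-LILRB4 libraries and 448 ± 31.0 CPM in controls (SD, n = 3 each). Their log2 fold changes were -0.51 and -0.28, with an edgeR adjusted p of 0.506 each. Mgll, which cleaves monoacylglycerol, was at 34.3 ± 3.47 CPM in anti-LILRB4 libraries and 24.4 ± 3.16 CPM in controls (log2 fold change 0.49, edgeR adjusted p 0.506). Of its exon bases 3.29% overlap Gm26588 on the opposite strand. The protocol does not mark strand, so reads of such shared bases cannot be told apart. In all of Nceh1, Lipa and Mgll the groups did not overlap.

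Genes of intracellular cholesterol and lipid droplets had a median of -0.02 over 20 tested genes, of which 2 had an unadjusted p under 0.05 on the higher side and 2 on the lower. Soat1, the enzyme that esterifies cholesterol for storage, was at 296, 261 and 264 CPM in anti-LILRB4 libraries 1, 2 and 3, against 346, 358 and 339 CPM in control libraries 1, 2 and 3. All anti-LILRB4 values lay below all controls, and the log2 fold change was -0.35 (standard error 0.10). The adjusted p from edgeR was 0.445 and that from DESeq2 0.0671. Plin3, a coat protein of lipid droplets, was at 17.5, 14.6 and 17.1 CPM in anti-LILRB4 libraries, against 11.5, 7.68 and 8.51 CPM in controls. For its log2 fold change of 0.83 edgeR gave an adjusted p of 0.426, and DESeq2, which called it, 0.0286. Stard4, a carrier of sterol between membranes, was at 5.90, 1.42 and 5.66 CPM in anti-LILRB4 libraries, against 1.02, 1.56 and 2.28 CPM in controls, with overlapping groups.

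**Figure D5:**
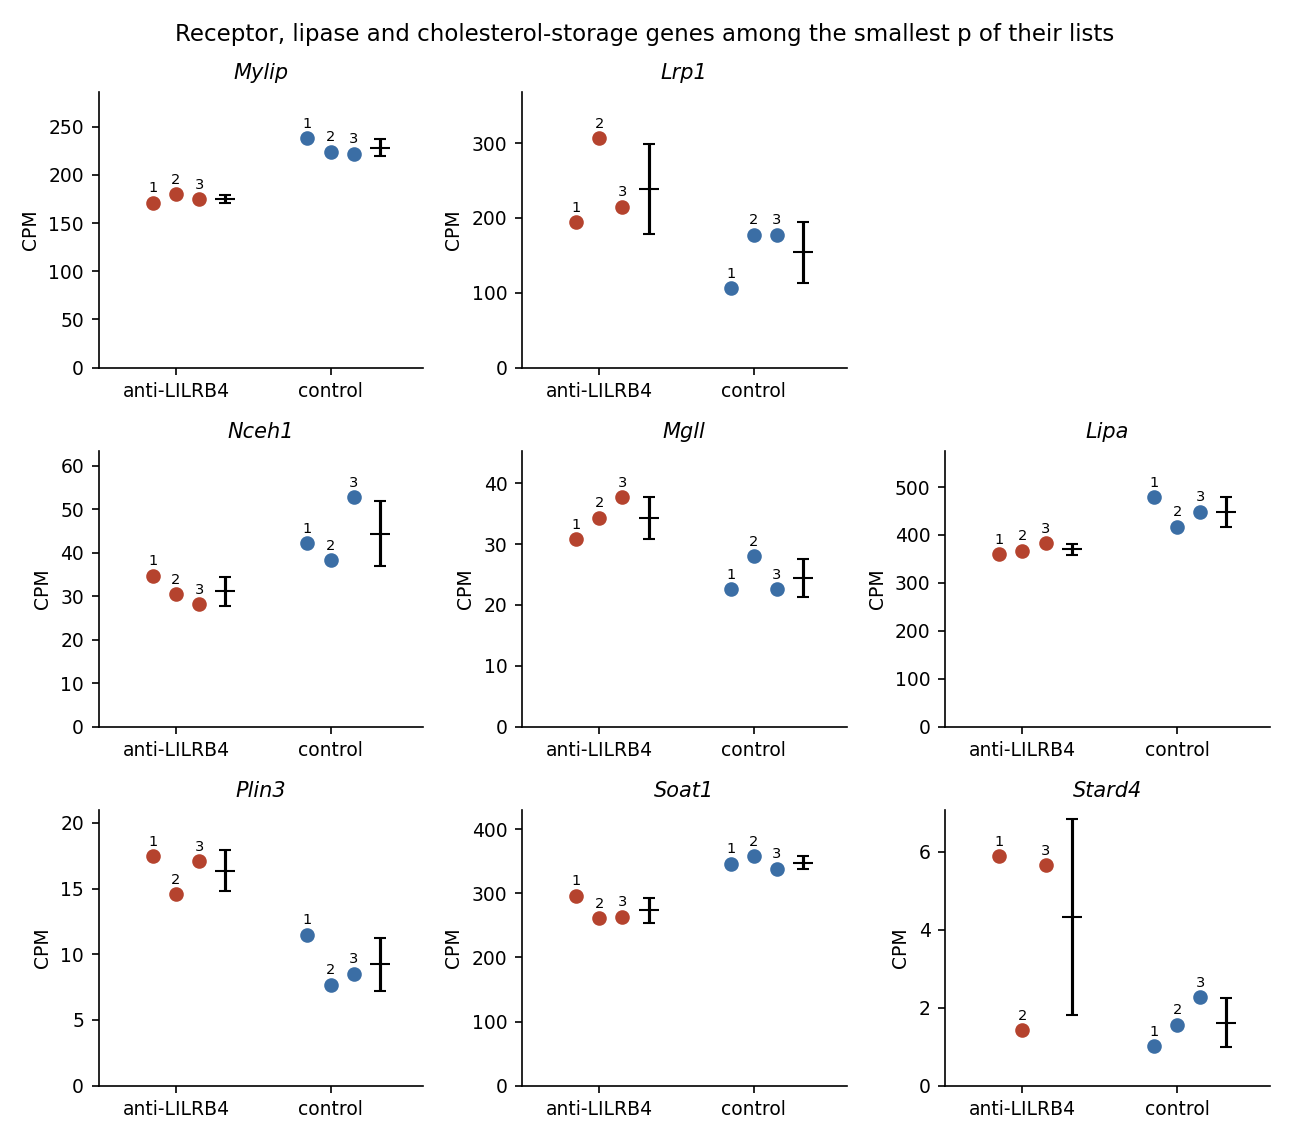
CPM (y axis) in each library of genes among the 3 smallest p of the receptor list (top row), the lipase list (middle) and the cholesterol and lipid droplet list (bottom), with anti-LILRB4 libraries (red) left of controls (blue), library numbers above points and mean and SD as a black bar. Soat1, Nceh1, Lipa and Mylip lie below all controls in the anti-LILRB4 libraries, Lrp1, Mgll and Plin3 above, and Stard4 overlaps.

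LXR and RXR receptors and their textbook targets had a median of 0.14 over 17 tested genes, of which 1 had an unadjusted p under 0.05 on the higher side and 1 on the lower. The gene on the lower side was Mylip, described above. The one on the higher side was Nr1h2, which encodes LXR beta, at 45.1 ± 4.53 CPM in anti-LILRB4 libraries and 35.9 ± 1.41 CPM in controls (SD, n = 3 each), a log2 fold change of 0.33 with an edgeR adjusted p of 0.575. Scd1, a desaturase induced by LXR, averaged 2.46 CPM in anti-LILRB4 libraries and 1.27 CPM in controls, and its groups overlapped (log2 fold change 0.95). Apoe, Abca1 and Abcg1, which are LXR targets too, were not counted in this list.

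Other transporters of the ABC family had a median of 0.10 over 14 tested genes, of which 2 had an unadjusted p under 0.05 on the higher side and 0 on the lower. They were Abcb4, a phospholipid transporter, and Abcd4, a lysosomal transporter of cobalamin. Abcb4 was at 26.4 ± 2.40 CPM in anti-LILRB4 libraries and 17.6 ± 4.60 CPM in controls (SD, n = 3 each). Abcd4 was at 13.6 ± 0.745 CPM in anti-LILRB4 libraries and 9.17 ± 2.03 CPM in controls (SD, n = 3 each). Abcd2, a peroxisomal importer of very long fatty acids, was at 133 ± 5.51 CPM in anti-LILRB4 libraries and 113 ± 10.4 CPM in controls (SD, n = 3 each). The edgeR adjusted p of the 3 was 0.534, 0.566 and 0.636. Of the 21 genes in the list of other apolipoproteins only 5 were tested, and 2 had no read in any library. Among those tested 1, Apobec1, had an unadjusted p under 0.05 in edgeR on the higher side, and 0 on the lower. Apobec1, an RNA-editing enzyme and no apolipoprotein, was at 48.3 ± 9.30 CPM in anti-LILRB4 libraries and 36.7 ± 3.59 CPM in controls (SD, n = 3 each), and Apom (0.337 CPM in anti-LILRB4 libraries, 0.669 CPM in controls) and Apoo (10.6 CPM in anti-LILRB4 libraries, 12.0 CPM in controls) had overlapping groups. The neighbours of Apoe had a median of 0.04 over 9 tested genes. Of these, 0 had an unadjusted p under 0.05 in edgeR on the higher side and 1, Nectin2, on the lower. In Nectin2 the groups did not overlap, with a log2 fold change of -0.47 and an edgeR adjusted p of 0.612. Tomm40, the next gene to Apoe and a subunit of the mitochondrial import pore, was at 11.3 ± 3.08 CPM in anti-LILRB4 libraries and 8.75 ± 1.63 CPM in controls, Bcam was under 1 CPM in every library, and Nectin2, a cell adhesion molecule, was at 24.3 ± 6.52 CPM in anti-LILRB4 libraries and 33.7 ± 2.88 CPM in controls (SD, n = 3 each). Genes on the opposite strand overlap 5.72% of the exon bases of Tomm40, 1.63% of Bcam and 3.86% of Nectin2.

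Markers of other cells differed between libraries as follows. Neutrophil markers, led by S100a8 and Ngp, summed to 133, 1128 and 219 CPM in anti-LILRB4 libraries 1, 2 and 3, against 1333, 569 and 609 CPM in control libraries 1, 2 and 3. Border-associated macrophage markers, led by Stab1 and Pf4, summed to between 282 and 336 CPM in anti-LILRB4 libraries and between 206 and 258 CPM in controls, and monocyte markers to between 32.9 and 90.5 CPM in anti-LILRB4 libraries and between 51.4 and 117 CPM in controls. Oligodendrocyte markers, mostly Cnp and Mag, summed to between 159 and 172 CPM in anti-LILRB4 libraries and between 125 and 144 CPM in controls, and endothelial markers, nearly all Bsg, to between 414 and 451 CPM in anti-LILRB4 libraries and between 362 and 404 CPM in controls. In the macrophage, oligodendrocyte and endothelial lists the sum of every anti-LILRB4 library lay above that of every control, but 1 gene made up most of each sum (79.1% Stab1, 60.3% Cnp and 94.98% Bsg). Without that gene the groups overlapped in all 3 lists, as in the macrophage list at 51.0, 51.4 and 82.2 CPM in anti-LILRB4 libraries 1, 2 and 3, against 62.0, 45.5 and 53.0 CPM in control libraries 1, 2 and 3. Neuronal markers stayed at or under 11.6 CPM and mural and fibroblast markers at or under 2.15 CPM in every library. The 2 highest Apoe libraries, anti-LILRB4 libraries 2 and 3, differed widely in neutrophil markers (1128 and 219 CPM). They had the highest sums of macrophage markers (336 and 320 CPM) and of endothelial markers (449 and 451 CPM). Control library 1, next highest in Apoe, had the lowest macrophage sum (206 CPM). The part of these cells in the lipoprotein genes was not tested.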

How the data were processed

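The authors deposited whole read counts per Ensembl gene for 6 libraries of sorted microglia. Per the submitters' processing notes STAR, Subread featureCounts, Salmon and DESeq2 1.38.3 were used, with roles, genome build and annotation not given in the sources used here. The cDNA kit named in the labels' protocols, SMARTer Ultra Low, is known not to mark strand. A second table deposited by the authors has, per the file headers, DESeq2 columns: a log2 fold change with its error, a score (their ratio), the p-value unadjusted and adjusted, and a signal, the mean of normalized counts.

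Of the deposited counts, 287 rows repeating an identifier were dropped. Library totals lay between 39805118 and 56345514 counts. Same-group libraries differed by more than sampling noise. Genes passing filterByExpr (minimum count 10) were scaled by TMM and tested in edgeR 4.0.16 under R 4.3.3 by the quasi-likelihood F test, with no covariate. Genes were called at an adjusted p of 0.05 over all genes. Log2 fold changes are anti-LILRB4 over control, and log2 CPM uses a prior count of 2. Alternatives were DESeq2 1.42.0, limma 3.58.1 (voom), 3 scalings, 2 filters, a replicate block, an adjusted p of 0.1, and each library left out. Tests were checked on simulated counts. Positions and lengths are GENCODE M21 (GRCm38), joined by identifier. Only 2.17% of the start positions in the authors' table matched it, so none of their coordinates are printed. Named were the 9 genes, the 3 smallest p per list, the 5 genes most like Apoe and the 2 most abundant markers per list used, save some that are not reported here. Genes and lists were chosen with earlier results of these data known. Figures were drawn with matplotlib 3.10.9.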

Additional observations from a re-analysis of the deposited data

How the results depend on the processing

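None of the 9 lipoprotein genes was called in any alternative run, and Apoc2, with 0 reads, could be compared in none. Over all genes, DESeq2 called 84 higher and 85 lower and edgeR with no filter on low counts 183 higher and 117 lower, while the main count and every other setting gave 0 in each direction. In the lists, DESeq2 called Mylip (-0.38), which stands in the receptor and LXR lists and so gave 1 lower in each, and Plin3 (0.83), the 1 higher in the cholesterol list. EdgeR with no filter called Lrp1 (0.64, adjusted p 0.000504), the 1 higher in the receptor list. Leaving out single libraries moved log2 fold changes between 0.35 and 0.71 for Apoe, -0.40 and 0.10 for Lpl, -0.058 and 0.21 for Abca1, -0.058 and 0.074 for Abcg1, and -0.37 and 0.40 for Abca7. The sign of Abcg1, near 0, also turned with upper quartile scaling (-0.029) and with a CPM of at least 1 in 3 libraries (-0.0040). The median of the other apolipoproteins was -0.00085 with that filter, which tests fewer genes. Without single libraries the list medians ranged from -0.196 to 0.0284 for other apolipoproteins, -0.308 to 0.170 for Apoe neighbours, -0.138 to 0.123 for lipases, -0.070 to 0.035 for cholesterol genes, 0.00084 to 0.207 for receptors, 0.065 to 0.286 for LXR genes and 0.055 to 0.215 for ABC transporters. With the longest transcript as length, Apoe was at 27.3, Lpl at 5.25 and Abcg1 at 209.8 CPM per kb. Libraries share only a number: same-numbered deviations correlated at 0.014, 0.029 and -0.014, and with the replicate number as a block 0 genes were called and the Apoe log2 fold change was 0.48. Clu, Apoc1 and Apoc4, with 83, 50 and 18 reads in all, were compared only without the filter, where few reads and single libraries limit the values. The causes of these shifts were not tested.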
